A study of Mus musculus with 16 samples.

Results

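Collagens are the structural proteins of the extracellular matrix, and the genes for their chains were taken here as all entries of both deposited tables whose name was Col followed by a number, the letter a and a number. The rule found 44 genes of the 24327 usable in both tables. The name Col4a3bp, which belongs to a ceramide transfer protein, starts alike but goes on, and was left out. The libraries were RNA-seq of quadriceps muscle from males on the C57BL/6 background, 4 months old, which were wild type or HDAC3 knockout (HDAC3-KO) and which either rested or ran. HDAC3 is a histone deacetylase of the NCoR and SMRT corepressor complexes; what drove its deletion, and in which cells, is not given in the sources used here. The running groups went through 3 bouts of 1 h on a treadmill at 10 m/min with 1 h of rest after a bout, and muscle was collected 2 h after the third bout. The 4 groups (wild type at rest, HDAC3-KO at rest, wild type after running and HDAC3-KO after running) held 3 libraries each.

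A collagen molecule is a triple helix of 3 chains, which may be copies of 1 gene product or come from different genes. The fibrillar types I, III and V make up the fibres of the connective tissue sheaths around muscle and its fibre bundles, type IV forms the sheet of the basement membrane around each muscle fibre and capillary, and type VI forms beaded filaments between these. In muscle most of these transcripts come from fibroblasts and other interstitial cells, while endothelial and muscle cells also make type IV. In bulk muscle, fewer cells of a type and less RNA per cell cannot be told apart.

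Values are FPKM, fragments scaled by transcript length and library size, so levels can be set side by side between genes; depth is unknown, and the 3 libraries of a group are the only measure of error. Whether each library came from its own animal is not stated in the labels, so p-values measure the spread between these samples, which may be technical. The targeted gene Hdac3 ran from 23.7 to 33.3 FPKM over the 6 wild-type libraries and from 4.13 to 8.16 FPKM over the 6 knockout libraries. Muscle identity was clear from 8 muscle fibre genes, with Acta1 between 8374 and 16730 FPKM. The authors deposited resting and running values as 2 tables, and the genotypes were compared inside each with limma on log2(FPKM + 1), and a gene was called at an adjusted p of 0.05 or less. A log2 difference below is knockout minus wild type on that scale, on which changes of low genes come out too small. Means are given ± SD of 3 libraries (n = 3).

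Libraries of one group differed in their collagens before any genotype was compared. Among the 22 collagen genes with a mean of at least 1 FPKM over the 12 libraries, wild-type library 3 at rest was the highest of its group for 16 genes. Knockout library 3 at rest was the lowest of its group for 14 genes, and knockout library 2 was the highest for 12. After running, wild-type library 3 was the lowest for 19 genes and knockout library 3 the highest for 17. The FPKM of all 44 genes summed to 320.7, 322 and 439 for wild type at rest and to 281.5, 342 and 205 for the knockout. After running the sums were 301, 317 and 181 in wild type and 211, 155 and 300.5 in the knockout. The sums overlapped between genotypes in both tables.

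**Figure D1:**
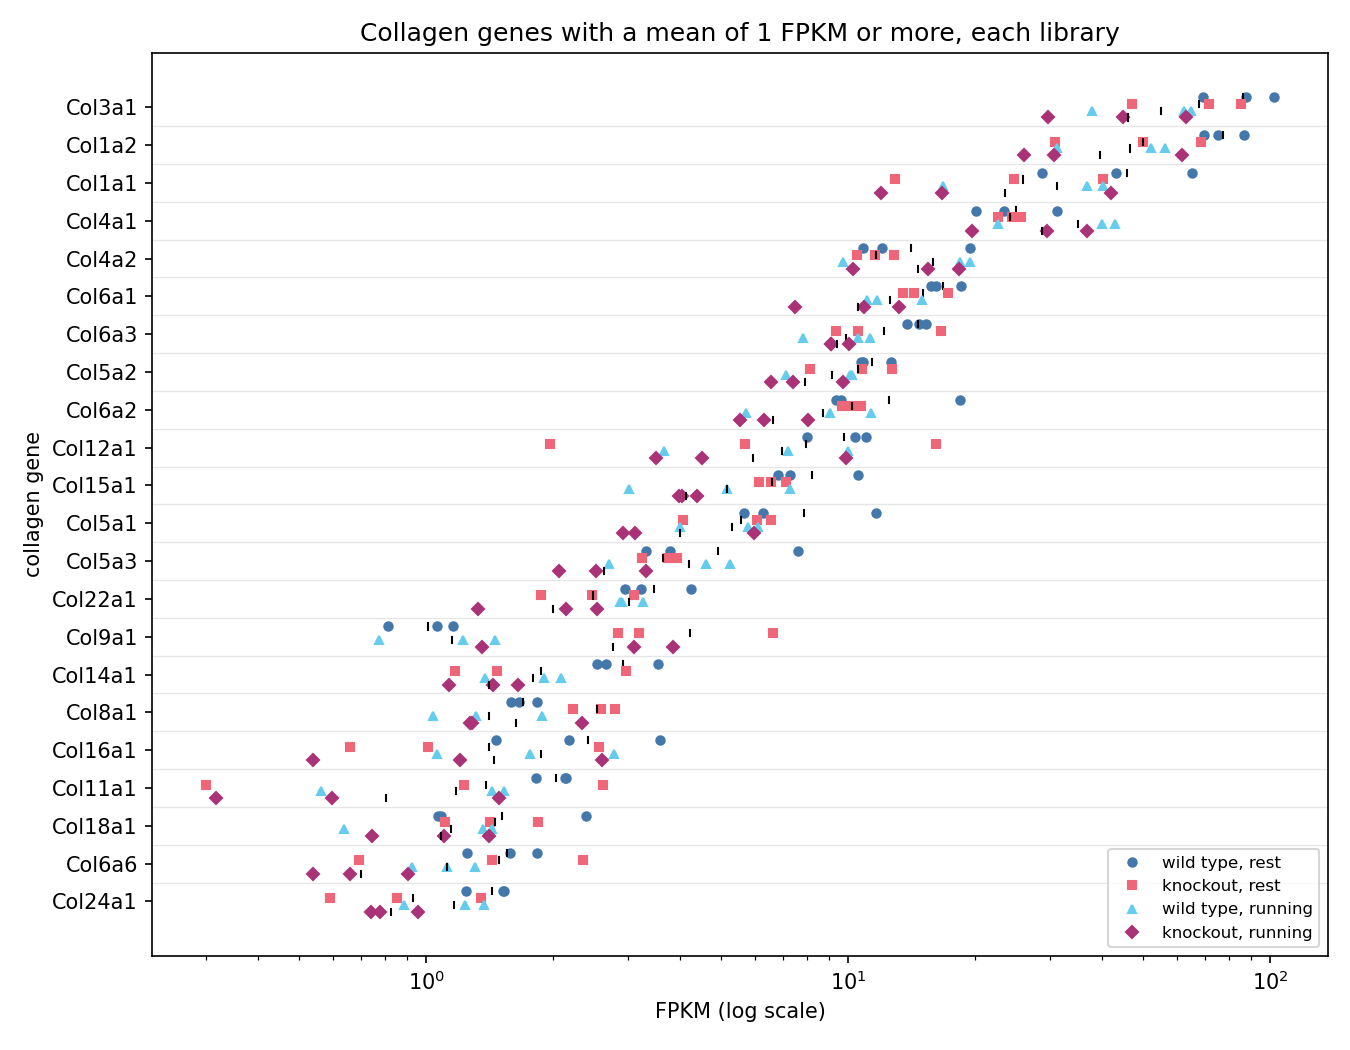
FPKM (log scale) of the 22 collagen genes with a mean of at least 1 FPKM, ordered by that mean; each marker is a library, marker shape and colour give the 4 groups, and short black bars are group means. Genes run from Col3a1, with a mean of 63.8 FPKM, to Col24a1, with 1.09 FPKM, and Col9a1 and Col8a1 are the genes whose knockout libraries all stand to the right of the wild-type libraries at rest.

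The highest single collagen genes of quadriceps were chains of types I, III, IV and VI. Over the 12 libraries the highest means belonged to Col3a1 (63.8 FPKM), Col1a2 (53.3 FPKM), Col1a1 (31.6 FPKM), Col4a1 (28.2 FPKM), Col4a2 (14.1 FPKM), Col6a1 (13.7 FPKM) and Col6a3 (11.5 FPKM), the 7 genes above 10 FPKM. Neighbours in this order overlapped: Col1a1 ran from 11.98 to 65.3 FPKM and Col4a1 from 19.7 to 42.9 FPKM. A further 15 genes had means between 1 and 10 FPKM. The other 22 genes had means under 1 FPKM, with single values from 0 to 1.65 FPKM, and 10 genes were listed at 0 in at least 1 library. Col6a4 was listed at 0 in 11 libraries, and no collagen gene was at 0 in all 12. The authors tested 19 collagen genes at rest and 15 after running, and all 15 were among the 19.

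The genotype comparison at rest asked which collagen transcripts differ in muscle without HDAC3 when the mice had not run. Col9a1 rose, and no other collagen gene was called. limma called 1 of the 19 tested collagen genes higher and 0 lower, against 3.04% of all 9204 tested genes called higher and 1.67% called lower. At an unadjusted p under 0.05 there were 3 collagen genes, Col9a1, Col1a2 and Col8a1. The authors' deposited table put 1 collagen gene at q of 0.05 or less that was higher in the knockout (5.9% of all tested genes) and 5 that were lower (4.94% of all tested genes). Col9a1 and Col8a1 had all knockout libraries above all wild-type libraries, an arrangement found in 15.6% of tested genes. Col1a2 had all knockout libraries below, an arrangement found in 12.4% of tested genes, and the groups overlapped for the other 16.

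After running, no collagen gene was called. limma called 0 of 15 tested collagen genes higher and 0 lower, against 1.58% and 2.15% of the 9037 tested genes, and 2 collagen genes, Col9a1 and Col22a1, had an unadjusted p under 0.05. The authors' deposited table had q values of 0.05 or less for Col9a1, higher in the knockout (4.66% of all tested genes), and for Col5a3 and Col22a1, lower in the knockout (4.91% of all tested genes). No tested collagen gene had all knockout libraries above the wild-type libraries (12.4% of tested genes). Col22a1 alone had them all below (13.7% of tested genes), and the groups overlapped for the other 14.

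**Figure D2:**
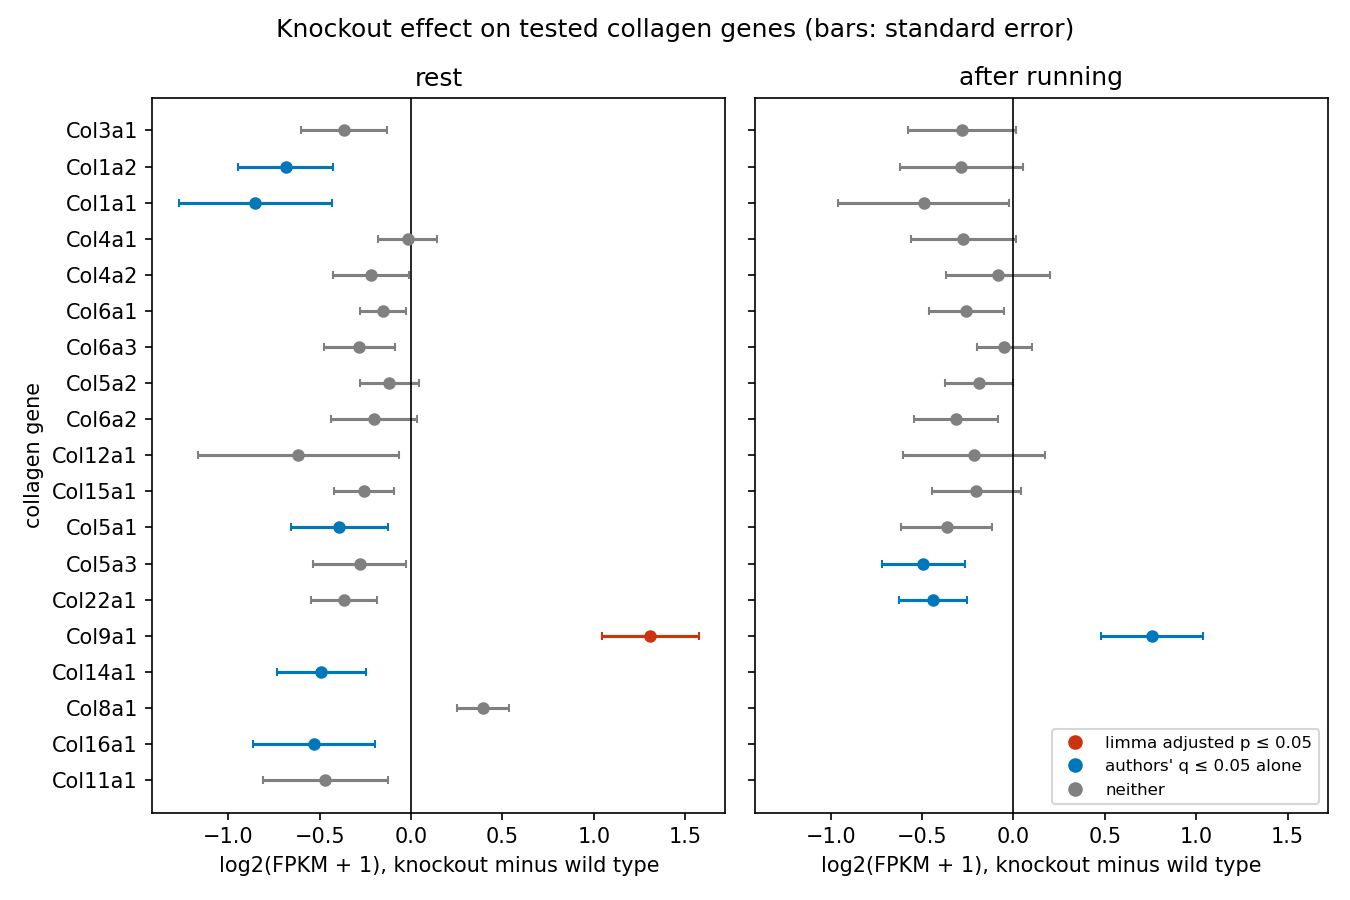
Log2 difference (knockout minus wild type, log2(FPKM + 1) scale) of the tested collagen genes at rest (19 genes) and after running (15 genes); points are limma estimates, bars are standard errors, and colour marks calls by limma, by the authors' q alone or by neither. Col9a1 stands to the right of 0 in both panels, at 1.31 and 0.76, and most other points lie to the left of 0.

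Col9a1 encodes a chain of type IX collagen, which coats the surface of type II collagen fibrils in cartilage and the eye and belongs to the FACIT group, the fibril-associated collagens with interrupted helices. At rest it measured 1.16, 1.06 and 0.81 FPKM in wild type and 2.845, 6.62 and 3.19 FPKM in the knockout. The 3 knockout libraries all stood above the 3 wild-type libraries, and knockout library 2 was the highest. Col9a1 rose from 1.01 ± 0.179 to 4.22 ± 2.09 FPKM, a ratio of means of 4.18 (log2 difference 1.31, SE 0.27, limma adjusted p = 0.0379, q of 0.00119 in the authors' deposited table). Leaving out any 1 of the 6 libraries ended the limma call, with log2 differences of 1.0 to 1.5 and adjusted p from 0.0509 (without knockout library 2) to 0.124 (without wild-type library 2). Calls over all genes fell as well, from 280 higher and 154 lower with all 6 libraries. They fell to 186 and 106 without wild-type library 3 and to 14 and 6 without wild-type library 2.

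After running Col9a1 measured 1.22, 0.773 and 1.45 FPKM in wild type and 1.35, 3.10 and 3.85 FPKM in the knockout. Knockout library 1 lay within the wild-type range, and the other two lay above it. The means were 1.15 ± 0.346 and 2.77 ± 1.28 FPKM, a ratio of 2.41, and the difference was not called by limma (log2 difference 0.76, SE 0.28, adjusted p = 0.188), while its q in the authors' deposited table was 0.00243. The knockout effect after running minus that at rest was -0.55 on the log2 scale (SE 0.42, limma interaction adjusted p = 0.923). A difference of the effect between the conditions was thus not shown for Col9a1.

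Type IX collagen is known as a trimer of the products of Col9a1, Col9a2 and Col9a3, and most other genes of that cartilage network, named here after their values were seen, were low. Col9a2 did not exceed 0.302 FPKM in any library and Col9a3 did not exceed 0.218 FPKM. Col2a1, the chain of the type II fibrils of cartilage, had its highest value of 1.01 FPKM in wild-type library 2 at rest and stood between 0 and 0.413 FPKM in the others. Col11a2, a chain of the type XI collagen at the core of those fibrils, stood between 0 and 0.776 FPKM. Col11a1, the other type XI chain, was higher, from 0.30 to 2.62 FPKM, and its highest value was in knockout library 2 at rest, the library with the highest Col9a1. Of the non-collagen cartilage genes, the proteoglycan gene Acan did not exceed 0.535 FPKM, the link protein gene Hapln1 did not exceed 0.199 FPKM, and the matrilin gene Matn1 was listed at 0 in all 12 libraries. Comp and Chad, matrix genes of both cartilage and tendon, were not near 0, with means of 2.21 and 2.06 FPKM over the 12 libraries. The list of 8 cartilage and bone genes, of which limma called 0 of 2 tested at rest, summed to between 5.66 and 15.1 FPKM in wild type at rest and between 0.404 and 10.03 FPKM in the knockout. Knockout library 3 had the sum of 0.404 FPKM, all of it from Col10a1, itself a collagen gene, and 3.19 FPKM of Col9a1. The highest resting sum, in wild-type library 2, came largely from the bone genes Ibsp (7.46 FPKM) and Bglap (4.99 FPKM). The source of the Col9a1 transcripts was not tested.

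**Figure D3:**
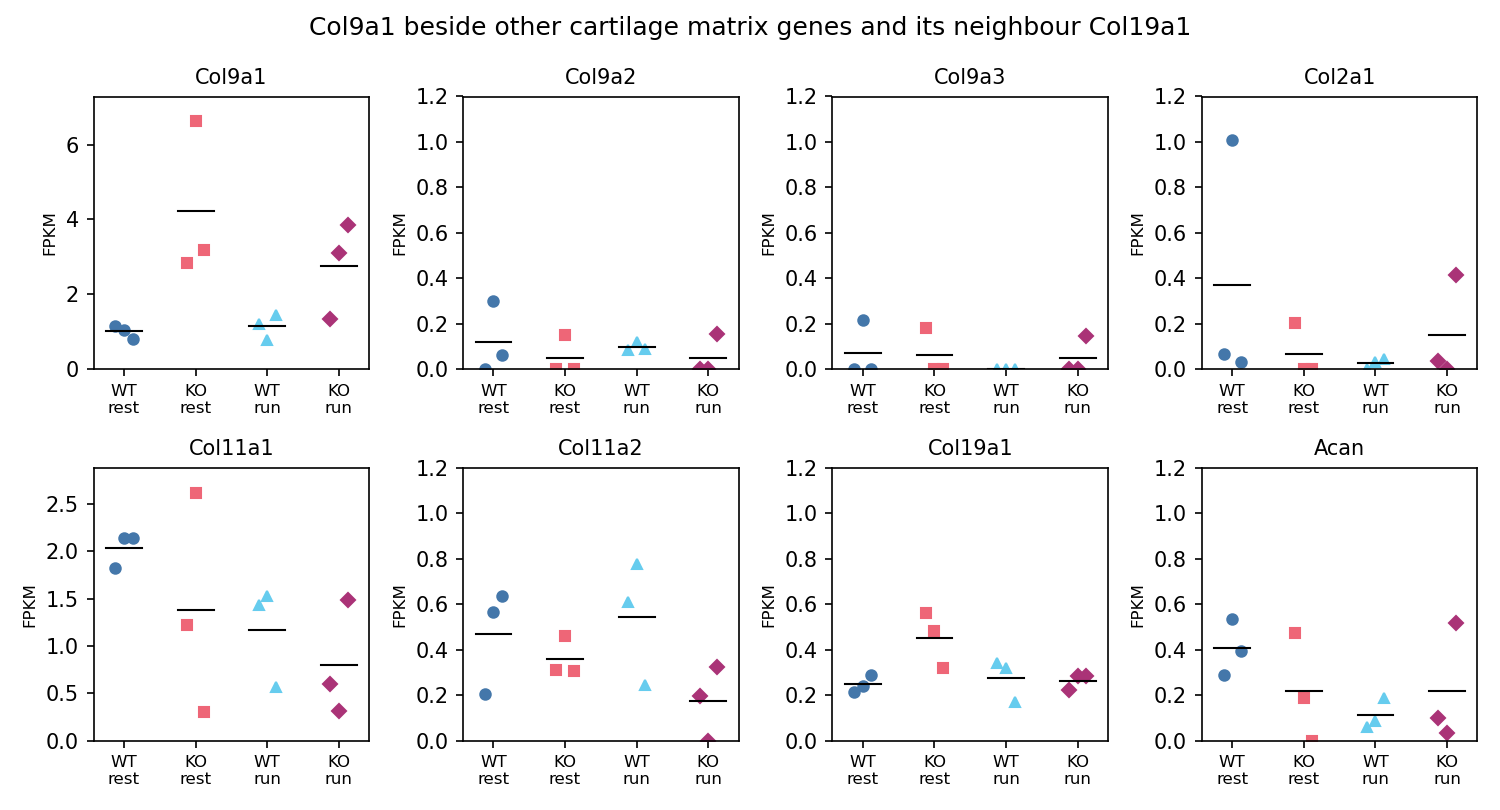
FPKM (linear axes from 0, scaled per panel) of Col9a1, of 5 other collagen genes of the cartilage network or its relatives, of the neighbouring Col19a1 and of the proteoglycan gene Acan; each marker is a library and each bar a group mean (WT, wild type; KO, knockout; run, after running). The knockout libraries at rest reach 6.62 FPKM for Col9a1, while Col9a2, Col9a3 and Acan stay below 0.6 FPKM in all 12 libraries.

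The gene lies on chromosome 1, and RefSeq gives it 2 transcription starts on the plus strand, 17.6 kb apart. The upstream start is known to be the one used in cartilage, and the downstream start, in the eye, gives a protein without the large amino-terminal domain. The deposited FPKM are per gene and do not separate the products of these starts. The 250 bases before each start are shown because Col9a1 was the collagen gene that was called (RefSeq, build GRCm38.p6; capitals mark the matches to the motifs described next).
Col9a1 upstream start, chr1:24177360-24177609, plus strand: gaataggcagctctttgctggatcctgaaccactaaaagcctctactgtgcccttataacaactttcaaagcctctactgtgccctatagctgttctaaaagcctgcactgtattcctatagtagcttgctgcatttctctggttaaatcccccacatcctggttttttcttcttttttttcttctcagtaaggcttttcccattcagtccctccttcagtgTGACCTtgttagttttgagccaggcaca
Col9a1 downstream start, chr1:24194953-24195202, plus strand: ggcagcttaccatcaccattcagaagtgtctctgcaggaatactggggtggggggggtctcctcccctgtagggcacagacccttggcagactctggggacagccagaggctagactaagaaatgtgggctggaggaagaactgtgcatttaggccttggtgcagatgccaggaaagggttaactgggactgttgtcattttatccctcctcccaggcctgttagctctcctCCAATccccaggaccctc

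Windows of 250 bases before the start were searched on both strands for 4 strings of letters, and 38 windows of 35 collagen genes were present among the 32851 windows of all genes. The GC box was searched as GGGCGG and the CCAAT box by its name. The TATA box was searched as TATAAA, and the half-site that many nuclear receptors bind was searched as AGGTCA. The upstream window of Col9a1 held 1 half-site, read as TGACCT on the printed strand and beginning 28 bases before the start. The downstream window held 1 CCAAT box, beginning 18 bases before the start. Half-sites were in 8 of the 38 collagen windows and in 14% of all windows. CCAAT boxes were in 13 of the 38 and in 33.8% of all, TATA boxes in 5 and in 12.4% of all, and GC boxes in 22 and in 32.7% of all. A match is a string of letters and not a measured site.

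The nearest neighbour of Col9a1 in the RefSeq order is another collagen gene, Col19a1, a FACIT chain known from basement membrane zones and named here for its position. Col19a1 was too low to be tested, but its resting libraries did not overlap, with 0.215, 0.240 and 0.286 FPKM in wild type and 0.559, 0.481 and 0.319 FPKM in the knockout. After running it measured 0.340, 0.318 and 0.171 FPKM in wild type and 0.222, 0.282 and 0.283 FPKM in the knockout, and the groups overlapped. The neighbour on the other side, Fam135a, measured 8.23, 6.48 and 6.69 FPKM in wild type at rest and 5.38, 4.64 and 7.16 FPKM in the knockout (limma adjusted p = 0.371). Lmbrd1, beyond Col19a1, had an adjusted p of 0.798 in the same limma test.

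The type I chains, which form the main fibres of tendon, bone and muscle sheaths, were lower in the knockout at rest by the authors' q but were not called by limma. Col1a1 measured 28.7, 43.0 and 65.3 FPKM in wild type and 24.7, 40.2 and 12.9 FPKM in the knockout. The groups overlapped, with the highest value in wild-type library 3 and the lowest in knockout library 3. Its log2 difference was -0.85 (SE 0.42, limma adjusted p = 0.297), against a q of 0.00119 in the authors' deposited table. Without knockout library 3 the log2 difference of Col1a1 was -0.44, and without wild-type library 3 it was -0.56. Leaving out knockout library 2 took it to -1.23, and leaving out wild-type library 1 took it to -1.14.

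Col1a2, the partner chain, measured 69.7, 75.4 and 86.7 FPKM in wild type at rest and 50.0, 68.7 and 30.9 FPKM in the knockout. All 3 knockout values lay below the wild-type values, and knockout library 2 stood just below wild-type library 1. The log2 difference was -0.69 (SE 0.26, limma adjusted p = 0.185, q of 0.00119 in the authors' deposited table), and it ran from -0.39 without knockout library 3 to -0.95 without knockout library 2 (limma adjusted p = 0.0786). After running the type I chains overlapped between genotypes. Col1a1 then measured 36.7, 40.1 and 16.8 against 16.7, 11.98 and 42.0 FPKM (log2 difference -0.49, SE 0.47, limma adjusted p = 0.606). Col1a2 measured 52.1, 56.2 and 31.2 against 30.7, 26.1 and 61.8 FPKM (log2 difference -0.29, SE 0.34, limma adjusted p = 0.685).

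Col1a2 is the tested collagen gene whose resting knockout libraries all lay below wild type, and the 250 bases before its start held 2 GC boxes and 1 CCAAT box, shown in capitals (RefSeq, GRCm38.p6). They begin 205, 188 and 109 bases before the start.
Col1a2, chr6:4505368-4505617, plus strand: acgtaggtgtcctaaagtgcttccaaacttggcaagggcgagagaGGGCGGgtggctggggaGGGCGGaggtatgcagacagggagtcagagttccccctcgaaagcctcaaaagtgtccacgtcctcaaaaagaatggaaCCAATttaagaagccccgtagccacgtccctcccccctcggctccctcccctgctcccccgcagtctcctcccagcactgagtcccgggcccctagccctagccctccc

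Col3a1, the type III chain of reticular fibres and the highest collagen gene in this muscle, measured 87.8, 69.2 and 102 FPKM in wild type at rest and 71.6, 85.1 and 46.9 FPKM in the knockout. The groups overlapped (log2 difference -0.37, SE 0.23, limma adjusted p = 0.416). After running it measured 62.5, 65.1 and 37.8 against 44.8, 29.7 and 63.2 FPKM, again with overlap (log2 difference -0.28, SE 0.30, limma adjusted p = 0.645). Type V chains join type I in mixed fibrils and are known to limit their diameter. Col5a1 had means of 7.86 ± 3.27 and 5.57 ± 1.33 FPKM at rest (limma adjusted p = 0.450, q of 0.0294 in the authors' deposited table). Wild-type library 3 held 11.6 FPKM of Col5a1, and without it the log2 difference went from -0.39 to -0.11.

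Col5a2 lay close together in the genotypes, at 11.4 ± 1.07 and 10.5 ± 2.29 FPKM at rest and at 9.13 ± 1.76 and 7.89 ± 1.64 FPKM after running. Col5a3, the third type V chain, measured 4.60, 5.24 and 2.71 FPKM in wild type after running and 2.52, 2.06 and 3.31 FPKM in the knockout. Wild-type library 3 lay among the knockout values (log2 difference -0.49, SE 0.23, limma adjusted p = 0.28, q of 0.0147 in the authors' deposited table). At rest its means were 4.90 ± 2.35 and 3.64 ± 0.35 FPKM. The type XI chain Col11a1, which nucleates fibrils, measured 1.82, 2.14 and 2.14 FPKM in wild type at rest and 1.23, 2.62 and 0.30 FPKM in the knockout. The knockout values lay on both sides of the wild-type values. Col24a1, a fibrillar chain, had means of 1.43 ± 0.164 and 0.931 ± 0.387 FPKM at rest and was not tested.

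Of the 11 fibrillar genes, 7 were tested at rest and 6 after running, and limma called 0 in each. At rest 3 passed the q threshold in the authors' deposited table, all lower in the knockout (Col1a1, Col1a2 and Col5a1), and after running 1 did (Col5a3). Their median log2 difference was -0.39 at rest and -0.33 after running, where the medians of all tested genes were 0.01 and near 0. The summed level of tendon markers, genes of a tissue rich in type I collagen, did not overlap between genotypes at rest, but the single genes did not all move alike. The 8 tendon genes summed to 86.6, 65.3 and 65.0 FPKM in wild type and 49.5, 38.8 and 33.2 FPKM in the knockout, and none was at 0 in any library. Thbs4 and Fmod had the highest resting means of the list, 33.4 and 20.1 FPKM in wild type and 18.1 and 11.2 FPKM in the knockout. All knockout libraries lay below wild type at rest for Thbs4, Fmod and Kera, an arrangement found in 12.4% of tested genes. Each of these genes had a q of 0.00119 in the authors' deposited table, where 4.94% of tested genes were lower at the q threshold. The groups overlapped for Tnmd, Comp, Chad, Mkx and Scx, and the mean of Scx was higher in the knockout (ratio of means 1.89). limma called 1 of 7 tested lower, Thbs4, against 1.67% of all tested genes. Thbs4, a matrix protein of tendon and muscle, measured 31.8, 35.9 and 32.5 FPKM in wild type and 21.1, 16.1 and 17.1 FPKM in the knockout (log2 difference -0.86, SE 0.12, limma adjusted p = 0.0162). After running the tendon sums were 54.1, 61.8 and 44.2 against 41.5, 42.5 and 45.8 FPKM, which overlapped, and limma called 0 of 6. The 10 fibroblast genes summed to between 481 and 758 FPKM in wild type at rest and between 454 and 623 FPKM in the knockout, with 0 of 9 called. The part of these cells in the type I values was not tested.

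The bone gene Ibsp and the collagenase gene Mmp13, named after their values were seen, were low or high in some of the same libraries as fibrillar and FACIT collagens. Ibsp, a bone sialoprotein, was at 0 FPKM and Mmp13 at 0.287 FPKM in knockout library 3 at rest, the library with the lowest Col1a1, Col11a1 and Col12a1 of its group. In knockout library 2 at rest they stood at 9.21 and 20.9 FPKM, and in knockout library 3 after running at 16.5 and 13.4 FPKM. Over the wild-type libraries at rest Ibsp was 2.37, 7.46 and 7.24 FPKM and Mmp13 was 5.03, 9.86 and 9.17 FPKM. Other bone genes did not share this order. In knockout library 2 at rest Bglap, the osteocalcin gene, and Sp7, an osteoblast transcription factor, were both listed at 0, and Bglap was highest, at 4.99 FPKM, in wild-type library 2 at rest. The neutrophil gene S100a8 reached 239.5 FPKM in wild-type library 2 at rest and 156 FPKM in knockout library 3 after running and did not exceed 6.20 FPKM in the others. The fibroblast proteoglycan gene Dcn had its highest value, 372 FPKM, in wild-type library 1 at rest, where Col1a1 was the lowest of its group. The part of bone, marrow or other attached tissue in the collagen values was not tested.

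**Figure D4:**
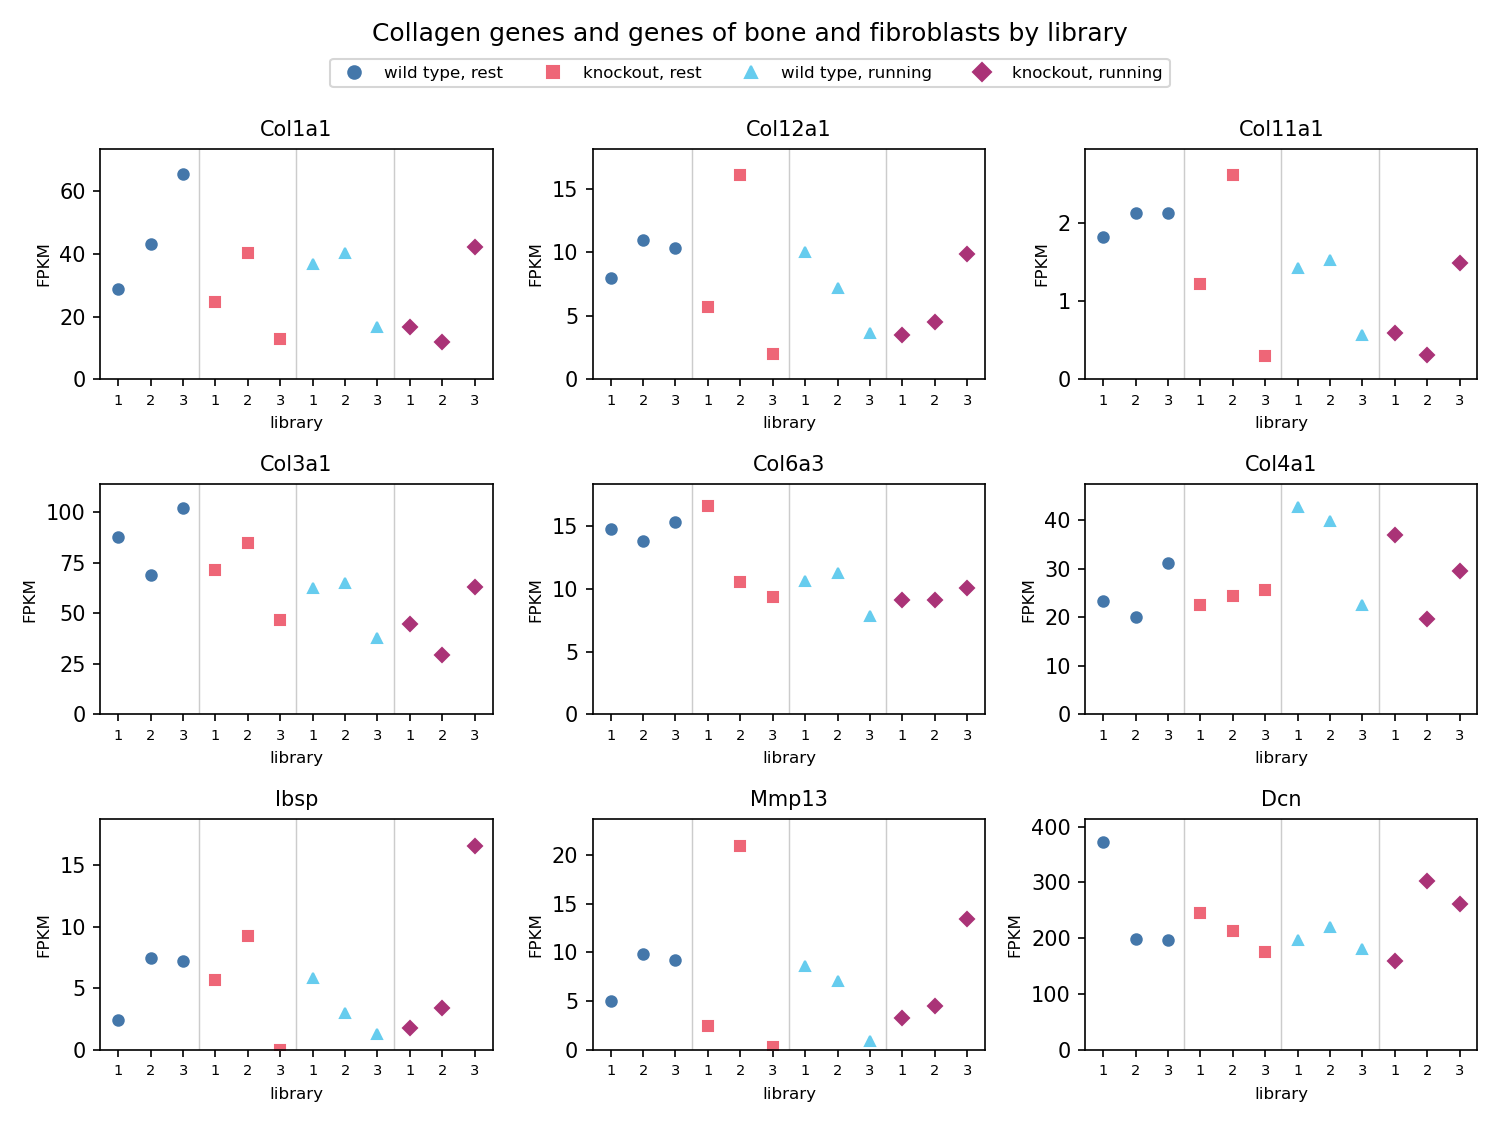
FPKM per library (linear axes from 0) of 6 collagen genes and of Ibsp (bone), Mmp13 (collagenase) and Dcn (fibroblast); numbers 1 to 3 are the libraries within each of the 4 groups. Col12a1, Col11a1, Ibsp and Mmp13 are all lowest in knockout library 3 at rest, at 1.97, 0.30, 0 and 0.287 FPKM.

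In type IV collagen, the network of the basement membrane, 2 of 6 genes were tested in each table and 0 were called. Col4a1 measured 23.4, 20.1 and 31.3 FPKM in wild type at rest and 22.6, 24.4 and 25.7 FPKM in the knockout, with a log2 difference of -0.02 (SE 0.16, limma adjusted p = 0.963). All knockout values lay within the wild-type range. After running it measured 42.9, 39.9 and 22.6 FPKM in wild type and 36.9, 19.7 and 29.6 FPKM in the knockout (log2 difference -0.27, SE 0.29, limma adjusted p = 0.645). Col4a2, its obligate partner in the common trimer, had means of 14.1 ± 4.69 and 11.6 ± 1.18 FPKM at rest and 15.9 ± 5.34 and 14.7 ± 4.05 FPKM after running, and limma adjusted p were 0.591 and 0.893. The chains Col4a3 to Col4a6 are known from basement membranes of kidney, lung and eye, and here they were low. Col4a3, Col4a4 and Col4a5 had means between 0.484 and 0.625 FPKM over the 12 libraries and Col4a6 0.059 FPKM. The 8 endothelial marker genes, of which limma called 0 of 8 in each table, summed to between 396 and 570 FPKM in wild type at rest and between 411 and 502 FPKM in the knockout. After running these sums lay between 413 and 713 FPKM and between 383 and 741 FPKM.

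The starts of Col4a1 and Col4a2 are 21 bases apart on opposite strands in RefSeq, and the transcribed regions of the 2 genes overlap each other. Whether counting used the strand is not given in the sources used here. Reads of the overlap could therefore count for either gene. Within each library the 2 chains kept a narrow ratio. The log2 ratio of Col4a1 to Col4a2 lay between 0.68 and 1.22, with group values of 0.85 ± 0.14 and 1.06 ± 0.06 at rest (wild type and knockout) and 1.16 ± 0.10 and 0.96 ± 0.04 after running. All knockout ratios lay above the wild-type ratios at rest, and all lay below them after running. No test was made of these ratios. Each was set by 3 libraries a group, and an exact permutation test of 3 against 3 cannot give a two-sided p below 0.1.

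Type VI collagen links the basement membrane to the fibres of the sheath, and defects of its genes cause congenital muscle disease. Of its 6 genes 3 were tested in each table and 0 were called. At rest Col6a1 measured 16.1, 15.7 and 18.5 FPKM in wild type and 17.3, 14.3 and 13.5 FPKM in the knockout. Col6a3 measured 14.7, 13.8 and 15.3 FPKM in wild type and 16.5, 10.5 and 9.36 FPKM in the knockout. Knockout library 1 was above all wild-type libraries for Col6a3 and the other two were below. Col6a2 measured 9.35, 9.62 and 18.4 FPKM against 10.7, 10.2 and 9.65 FPKM, with wild-type library 3 standing apart. For these 3 genes limma adjusted p were 0.528, 0.451 and 0.675 at rest and 0.525, 0.885 and 0.491 after running. Col6a6, a chain that can take the place of Col6a3, was not tested. Its groups overlapped at rest. After running it measured 0.926, 1.30 and 1.12 FPKM in wild type and 0.538, 0.659 and 0.905 FPKM in the knockout, without overlap. Col6a5 did not exceed 0.105 FPKM.

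**Figure D5:**
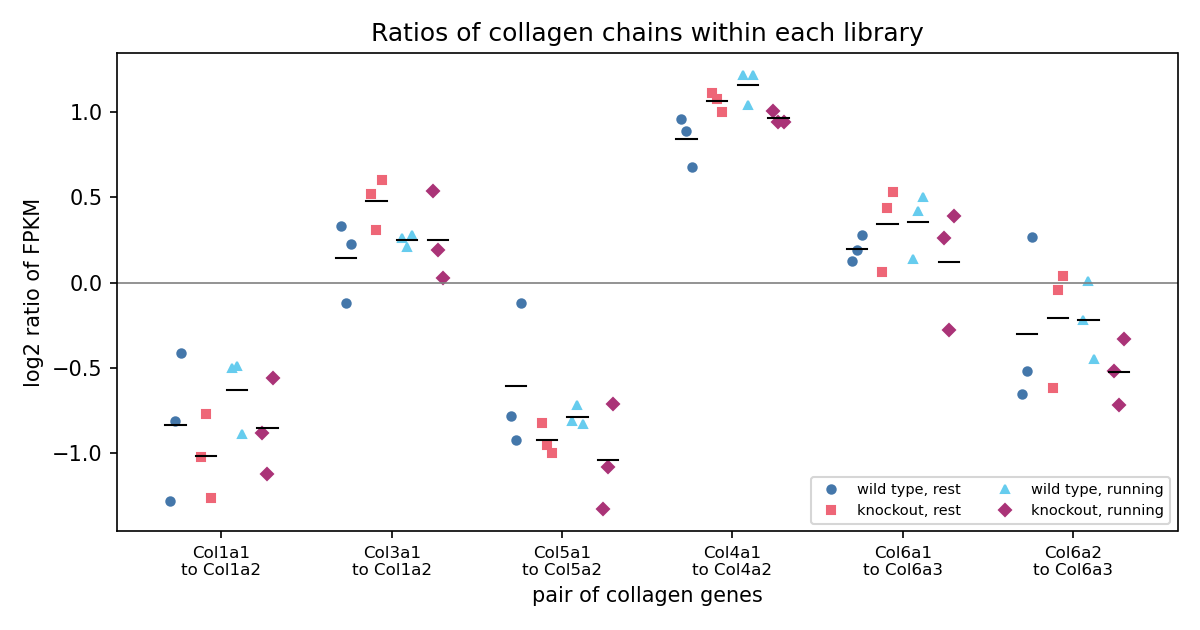
Log2 ratio of the FPKM of 2 collagen chains within each library, for 6 pairs; markers give the 4 groups and bars the group means. Col4a1 to Col4a2 spans 0.68 to 1.22 over the 12 libraries, Col1a1 to Col1a2 spans -1.28 to -0.41, and Col5a1 to Col5a2 spans -1.33 to -0.12.

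The ratio of the type I chains was wider than that of type IV. The log2 ratio of Col1a1 to Col1a2 ran from -1.28 in wild-type library 1 at rest to -0.41 in wild-type library 3 at rest. The FPKM of Col1a1 lay below that of Col1a2 in all 12 libraries. The type I protein is known to hold more Col1a1 than Col1a2 chains. The ratio of Col3a1 to Col1a2 was 0.15 ± 0.24 in wild type and 0.48 ± 0.15 in the knockout at rest, and 0.25 ± 0.03 and 0.25 ± 0.26 after running. Col5a1 to Col5a2 was -0.61 ± 0.43 and -0.93 ± 0.09 at rest and -0.79 ± 0.06 and -1.04 ± 0.32 after running. These ranges overlapped between genotypes within each table, and no test was made.

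Of the 9 FACIT genes measured, 5 were tested at rest and 3 after running, and Col9a1 at rest was the only one called. Col12a1 and Col14a1 decorate type I fibrils, and Col22a1 marks the junction of muscle and tendon. Col12a1 measured 7.97, 11.01 and 10.4 FPKM in wild type at rest and 5.69, 16.1 and 1.97 FPKM in the knockout. Its knockout values spread 8.19-fold, on both sides of the wild-type values (log2 difference -0.62, SE 0.55, limma adjusted p = 0.57). Leaving out knockout library 3 took that difference to near 0, and leaving out knockout library 2 took it to -1.26. Col14a1 measured 3.54, 2.54 and 2.67 FPKM in wild type and 2.97, 1.47 and 1.17 FPKM in the knockout at rest. Knockout library 1 lay among the wild-type values (log2 difference -0.49, SE 0.24, limma adjusted p = 0.301, q of 0.029 in the authors' deposited table). After running Col14a1 was not tested, with means of 1.79 ± 0.366 and 1.41 ± 0.261 FPKM.

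Col22a1 measured 3.27, 2.91 and 2.87 FPKM in wild type after running and 2.15, 1.32 and 2.53 FPKM in the knockout. All knockout values lay below the wild-type values (log2 difference -0.44, SE 0.19, limma adjusted p = 0.239, q of 0.0412 in the authors' deposited table). At rest it measured 2.95, 3.23 and 4.24 FPKM against 1.87, 3.10 and 2.47 FPKM. The resting groups overlapped through knockout library 2 alone (log2 difference -0.37, SE 0.18, limma adjusted p = 0.3). Col16a1, a minor fibril-associated chain, measured 1.46, 2.18 and 3.58 FPKM in wild type at rest and 1.01, 2.56 and 0.661 FPKM in the knockout. Its groups overlapped, with a log2 difference of -0.53 (SE 0.34, limma adjusted p = 0.413), against a q of 0.0226 in the authors' deposited table. Col20a1 stayed between 0.0555 and 0.665 FPKM and was not tested.

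Of the multiplexins, Col15a1 and Col18a1, basement membrane collagens whose ends release anti-angiogenic fragments, Col15a1 was the higher. Col15a1 measured 6.81, 7.26 and 10.6 FPKM in wild type at rest and 7.11, 6.54 and 6.14 FPKM in the knockout (log2 difference -0.26, SE 0.16, limma adjusted p = 0.419). After running its wild-type values of 5.17, 7.29 and 3.03 FPKM enclosed the knockout values of 3.97, 4.38 and 4.04 FPKM. Col18a1 had means between 1.09 and 1.51 FPKM in the 4 groups and was not tested.

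Col8a1, a short-chain collagen of vessel walls and of the membrane beneath the corneal endothelium, was the other tested gene whose knockout libraries all stood above wild type at rest. It measured 1.65, 1.83 and 1.59 FPKM in wild type and 2.80, 2.22 and 2.60 FPKM in the knockout, a ratio of means of 1.5. The difference did not pass either test (log2 difference 0.39, SE 0.14, limma adjusted p = 0.164, q of 0.075 in the authors' deposited table). After running it was not tested, and its values of 1.89, 1.31 and 1.04 FPKM in wild type and 2.34, 1.28 and 1.27 FPKM in the knockout overlapped. The window before its start held 4 GC boxes, read as CCGCCC on the printed strand, beginning 170, 73, 66 and 23 bases before the start (RefSeq, GRCm38.p6).
Col8a1, chr16:57754738-57754987, minus strand: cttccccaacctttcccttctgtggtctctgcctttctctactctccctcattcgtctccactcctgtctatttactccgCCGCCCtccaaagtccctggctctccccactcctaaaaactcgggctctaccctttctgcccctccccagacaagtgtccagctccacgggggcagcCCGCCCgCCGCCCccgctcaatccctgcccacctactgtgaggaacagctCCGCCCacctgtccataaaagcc

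Col8a2, its partner chain, had means of 1.23 ± 0.33 and 0.866 ± 0.312 FPKM at rest. Col7a1, the anchoring fibril collagen of skin, reached 1.65 FPKM in wild-type library 3 at rest and stood between 0.374 and 0.981 FPKM in the others. Col10a1, a marker of hypertrophic cartilage, stood between 0.307 and 1.57 FPKM. The 4 transmembrane collagens (Col13a1, Col17a1, Col23a1 and Col25a1) summed to between 0.566 and 1.17 FPKM per library. Col13a1 is known from the neuromuscular junction, and its highest value was 0.564 FPKM. Col28a1, a chain known from peripheral nerve, and Col23a1, whose protein is shed from the cell surface, were 2 of 5 genes of all 44 with every knockout library below wild type after running. Col22a1, Col6a6 and Col4a6 were the others. Of these 5 genes Col22a1 alone was tested, and 13.7% of all tested genes had this arrangement. No share was taken over a set that holds untested genes, so the 5 of 44 has no like share beside it. Col28a1 measured 0.876, 0.782 and 0.879 FPKM in wild type and 0.659, 0.112 and 0.291 FPKM in the knockout after running. At rest its means were 0.346 ± 0.0827 and 0.356 ± 0.118 FPKM.

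The direction of the 22 genes with a mean of at least 1 FPKM was much the same in the 2 tables, which share no library. The knockout mean was below the wild-type mean for 20 of them in both tables and above it for Col9a1 and Col8a1 in both. Over all 44 genes the knockout mean was lower for 33 at rest and for 32 after running. In the fit with no filter, 33 of 43 collagen genes at rest and 34 of 44 after running had a log2 difference below 0. Of all genes in that fit 53.4% and 47.1% did. Among tested collagen genes 17 of 19 at rest and 14 of 15 after running had a log2 difference below 0, where 48.3% and 50.1% of all tested genes did. Under scaling to equal FPKM sums 17 of 19 and 12 of 15 did, where 54.6% and 38.3% of all tested genes did. The median log2 difference of the tested collagens was -0.28 at rest and -0.27 after running. These genes move together within a library, so their count does not stand for independent observations. The resting median was -0.11 without wild-type library 3 and -0.17 without knockout library 3. Leaving out wild-type libraries 2 or 1 gave -0.40 and -0.37, and leaving out knockout libraries 1 or 2 gave -0.33 and -0.25. The median after running was -0.08 without knockout library 2, -0.14 without wild-type library 2, -0.17 without wild-type library 1, -0.53 without wild-type library 3 and -0.44 without knockout library 3. With no filter the medians were -0.12 over 43 genes at rest and -0.14 over 44 genes after running.

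The interaction contrast asked whether the knockout effect differed between running and rest. limma called 0 of the 15 collagen genes tested in both tables, and 0 had an unadjusted p under 0.05. Of the 8854 genes in that contrast 0 were called (0%), and 433 had an unadjusted p under 0.05. Of the 15 collagen genes, 8 had a contrast above 0 and 7 below.

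Levels at rest and after running come from tables that the authors made separately, so they are set side by side without a test. The sum over all 44 genes was 361 ± 68.0 FPKM in wild type at rest and 266 ± 74.5 FPKM after running, and 276 ± 68.6 and 222 ± 73.5 FPKM in the knockout. Col3a1 stood at 86.4 ± 16.5 and 55.1 ± 15.1 FPKM in wild type and at 67.9 ± 19.4 and 45.9 ± 16.8 FPKM in the knockout. Col4a1 was at 24.9 ± 5.74 and 35.1 ± 10.9 FPKM in wild type and at 24.2 ± 1.57 and 28.7 ± 8.65 FPKM in the knockout. The 6 type VI genes summed to 45.5 ± 7.06 and 32.3 ± 6.52 FPKM in wild type and to 38.9 ± 6.51 and 27.3 ± 4.72 FPKM in the knockout. Col28a1, named after its values were seen, stood at 0.271 to 0.435 FPKM in wild type at rest and at 0.782 to 0.879 FPKM after running.

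Of 20 measured genes that modify, fold and export procollagen, 13 were tested in each table, and limma called 0 in either. P4hb, the protein disulfide isomerase that is also the beta subunit of prolyl 4-hydroxylase, had the highest mean. It measured 54.4, 53.5 and 55.1 FPKM in wild type at rest and 109, 69.0 and 94.4 FPKM in the knockout. After running it measured 56.4, 60.2 and 63.3 FPKM in wild type and 102, 88.1 and 77.03 FPKM in the knockout. Every knockout library stood above every wild-type library in both tables, and limma stopped short of the threshold (log2 differences 0.71 and 0.55, SE 0.16 and 0.13, adjusted p = 0.0563 and 0.0608). The q of P4hb in the authors' deposited table was 0.00119 at rest and 0.014 after running. Sec13, a coat protein of the vesicles that carry procollagen, had limma adjusted p of 0.415 and 0.991. P4ha2, an alpha subunit of prolyl 4-hydroxylase, was the other gene of this list with a q under 0.05 in the authors' deposited table (0.0462 at rest, lower in the knockout), and is named after its values were seen.

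Enzymes that cut the propeptides and cross-link the chains gave no limma call among 7 tested at rest and 6 after running. Pcolce, an enhancer of propeptide removal, and Lox, the lysyl oxidase, had the highest means of the list, 10.5 and 4.70 FPKM over the 12 libraries, and their resting limma adjusted p were 0.459 and 0.368. Loxl1, a lysyl oxidase relative named after its values were seen, had a q of 0.0092 after running in the authors' deposited table, higher in the knockout, and a limma adjusted p of 0.203. Among 9 tested genes of collagen breakdown and its inhibitors limma called 0 in either table. Timp3 and Timp4, inhibitors of metalloproteinases, had the highest means, and their resting limma adjusted p were 0.528 and 0.321. Timp2 and the collagen-degrading protease gene Ctsk, also named after their values were seen, were lower in the knockout at rest with q of 0.00301 and 0.048 in the authors' deposited table, and limma adjusted p were 0.0753 and 0.352.

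Of the collagen receptors, 4 were tested at rest and 3 after running, with 0 called. Itgb1, the common beta chain of the collagen-binding integrins, and Itga1 had limma adjusted p of 0.829 and 0.99 at rest and 0.65 and 0.301 after running. The TGF-beta genes, a pathway known to drive collagen transcription in fibroblasts, had 16 tested in each table and 0 called. Smad3 and Smad4, its transcription factors, had limma adjusted p of 0.842 and 0.234 at rest and 0.221 and 0.556 after running. The target Ctgf, named after its values were seen, had a q of 0.0046 at rest in the authors' deposited table, higher in the knockout, with a limma adjusted p of 0.211. The median log2 difference of the TGF-beta genes was -0.09 at rest and -0.01 after running, beside -0.28 and -0.27 for the collagen chains.

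Of the remaining marker lists of other cell types, limma called 2 genes, neither of them a collagen gene. Des, the desmin gene, which stands in the pericyte list and is also a muscle fibre gene, was called higher in the knockout in both tables (limma adjusted p = 0.0271 and 0.0379). The macrophage gene Cd68 was called higher in the knockout after running (limma adjusted p = 0.0372), as 1 of 4 tested leukocyte genes. The authors' deposited table had all 4 higher in the knockout after running at its q threshold. For the neutrophil genes S100a8 and S100a9 among them, only knockout library 3 was high, at 156 and 148 FPKM. Knockout libraries 1 and 2 lay within the wild-type range for both. Every knockout library stood above wild type after running for Cd68 and for Csf1r, Adgre1, Itgam and Ptprc, named after their values were seen. The arrangement was found in 12.4% of tested genes, while Adgre1, Itgam and Ptprc were not tested. The groups overlapped for S100a8, S100a9 and Cd3e, the other measured genes of this list. The part of leukocytes in the collagen values was not tested. In the fibroblast, endothelial, Schwann cell, adipocyte, cartilage and bone, muscle fibre and satellite cell lists 0 genes were called in either table.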

How the data were processed

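RNA-seq libraries of mouse quadriceps were deposited by the authors as FPKM per gene in 2 tables of 24354 entries, 1 at rest and 1 after running, each with 6 library columns, group means, and the p-values and q-values of the authors' own comparison of the genotypes. TopHat2, Bowtie, Cuffdiff, HOMER and mm9 are named in the submitters' processing notes; versions, the Cuffdiff settings, the annotation and strand are not given in the sources used here. Depth is unknown, so no counting error is given. After running, 27 gene names had turned into dates, and these entries were left out.

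limma 3.58.1 (R 4.3.3; moderated variances with a mean-variance trend, two-sided, Benjamini-Hochberg adjustment) was run per table on log2(FPKM + 1) over all genes the authors tested (deposited p under 1; 9204 and 9037 genes), and as an interaction contrast over 12 libraries and 8854 genes. It was also run on simulated data with the same spread for every gene, which cannot show how well it calls the collagen genes here. Genes were named if called by limma, with a q at or under 0.05, or with a mean of at least 1 FPKM; of other lists, called genes or the 2 of highest mean. Other genes, such as the low collagens, cartilage and bone genes and the neighbours of Col9a1, were named after their values were seen. The members and lists were chosen with earlier results of these data known. Symbols were looked up in RefSeq (GRCm38.p6), where 44 of 44 were found; 35 had a promoter entry. Coordinates are of that build and not of mm9. Alternatives were another pseudocount (0.1), filter, scaling, a joint fit, the replicate block, the authors' q and leaving out each library. The 4 GRO-seq libraries were not analysed here. Tables and figures were made with Python 3.11.15, pandas 2.3.3 and matplotlib 3.10.9.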

Additional observations from a re-analysis of the deposited data

How the results depend on the processing

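Depth is unknown and each group has 3 libraries, which limits what any test here can call. Col9a1 at rest kept its direction under every alternative run and passed limma with a pseudocount of 0.1 (adjusted p = 0.0303), a filter at a mean of 1 FPKM (0.0428), median-ratio scaling (0.0383), FPKM-sum scaling (0.0336) and 1 fit over 12 libraries (0.0207). It missed the threshold with no filter (limma adjusted p = 0.0795), so that 0 collagen genes were called at rest. With the replicate number as a block the count was also 0 (limma adjusted p = 0.0697 for Col9a1, log2 difference 1.31). Whether equal numbers mark paired samples is not stated in the labels, and correlations from 3 libraries a group cannot decide it. The same-number correlations were 0.038, -0.039 and 0.019 at rest and 0.139, -0.291 and -0.128 after running. The highest correlations with another number were 0.005, 0.033 and 0.026 at rest and 0.069, 0.37 and 0.196 after running. The block took the calls over all genes from 280 higher and 154 lower to 34 and 18 at rest, and from 143 and 194 to 83 and 87 after running. Leaving out each library in turn gave 0 collagen calls in every case at rest, where the calls over all genes fell too. By the q in the authors' deposited table the counts were 6 at rest and 3 after running. FPKM-sum scaling moved the split of calls over all genes to 200 higher and 168 lower at rest and 172 and 105 after running, where it moved the median of all genes from -0.001 to 0.087.

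Of 746 single-gene values under alternatives, 679 kept their direction and side of the threshold, 8 no longer passed, 8 newly passed and 51 changed sign. The gene values that changed sign had not been called, and the causes were not tested. Under FPKM-sum scaling the log2 difference after running became 0.00366 for Col4a2 and 0.0389 for Col6a3, and the interaction became 0.0202 for Col22a1, 0.0609 for Col5a2, 0.0245 for Col6a1 and 0.00826 for Col6a2. With a pseudocount of 0.1 the interaction of Col5a1 became -0.00438. Leaving out single libraries gave ranges on both sides of 0 for these. At rest they were -1.26 to 0.000244 for Col12a1, -0.156 to 0.15 for Col4a1, -0.375 to 0.0196 for Col4a2, -0.254 to 0.0385 for Col5a2, -0.471 to 0.026 for Col5a3 and -0.359 to 0.0941 for Col6a2. After running they were -0.592 to 0.0623 for Col12a1, -0.479 to 0.0417 for Col15a1, -0.384 to 0.133 for Col4a2 and -0.193 to 0.0423 for Col6a3. For the interaction they were -0.216 to 1.05 for Col12a1, -0.221 to 0.3 for Col15a1, -0.142 to 0.734 for Col1a1, -0.205 to 0.0996 for Col22a1, -0.175 to 0.358 for Col3a1, -0.163 to 0.354 for Col4a2, -0.26 to 0.2 for Col5a1, -0.226 to 0.0662 for Col5a2, -0.27 to 0.1 for Col6a1 and -0.409 to 0.0811 for Col6a2.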
